A study of Mus musculus with 2 samples.

Results

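In cultured mouse neurons, the summits of 1228 out of 7873 ATF4 peaks lay no more than 1000 bp from an end of exactly 1 protein-coding gene. This was 15.6% of the peaks (95% interval 14.8 to 16.42, Clopper-Pearson). A gene end here is the first or the last base of the gene in the RefSeq table of build GRCm38.p6, which shares its coordinates with mm10, the build of the peaks. The members were chosen from the summit position alone, so their height and width did not enter the choice. They lay at 1199 genes, which is 5.48% of the 21887 protein-coding genes on the chromosomes with peaks, and this share is the background for the gene counts below.

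The cells were C57BL/6 primary neurons of embryonic cortex and hippocampus, and in the study the assay served to find genes that ATF4 may regulate in neurons, above all genes of one-carbon metabolism. 1 library was made with an antibody against ATF4 and 1 with IgG, each from 100000 cells (the second was not analysed here). The labels do not say whether the cells had been treated, and they list no genetic change. The ATF4 library had no replicate, so no test between samples was possible, and every interval below covers counting error alone. PCR copies are not independent molecules, which such intervals leave out. The peaks do not measure expression, so the labelled cell type could not be checked against marker levels.

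ATF4 is a basic leucine zipper transcription factor of the integrated stress response. Stress kinases phosphorylate eIF2, general translation falls, and the Atf4 mRNA is translated more. ATF4 then pairs with C/EBP or other leucine zipper proteins at the C/EBP-ATF response element (CARE), and its known targets serve amino acid synthesis and uptake, tRNA charging, one-carbon metabolism and the feedback control of eIF2 phosphorylation. CUT&Tag places a transposase at the antibody, so that DNA around the bound protein is cut out and sequenced, and open promoters can also be cut. No member lay at the Atf4 gene itself, where the nearest summit was 243 kb away.

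The sequences come first because the highest peaks shared short words. The promoter sequences are those of RefSeq, each with 250 bases before and 50 bases after a listed gene start. The summits of 362 members, at 362 genes, fell inside such a window. The CARE core is TGATGCAA, and it was searched on both strands. The 10 members with the highest fold enrichment among those with this core are printed as 30 bases of build GRCm38.p6, read 5′ to 3′ on the strand that carries it, with the core in capitals.
Iars, chr13:49682126-49682155, minus strand: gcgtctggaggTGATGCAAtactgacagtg
Tars, chr15:11399655-11399684, plus strand: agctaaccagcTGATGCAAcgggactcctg
Got1, chr19:43524689-43524718, plus strand: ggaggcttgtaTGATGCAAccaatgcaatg
Plekhh3, chr11:101171504-101171533, minus strand: ccagagacacaTGATGCAAcccgccgcggt
Pycr1, chr11:120643833-120643862, minus strand: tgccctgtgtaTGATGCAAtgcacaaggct
Herpud1, chr8:94386306-94386335, minus strand: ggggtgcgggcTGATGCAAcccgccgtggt
Slc1a4, chr11:20332699-20332728, plus strand: caggctggagaTGATGCAAcgcaggaggca
Chac1, chr2:119351038-119351067, minus strand: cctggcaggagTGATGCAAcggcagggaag
Cnpy2, chr10:128322327-128322356, plus strand: cccacctggacTGATGCAAtttccccaggc
Atf3, chr1:191183425-191183454, plus strand: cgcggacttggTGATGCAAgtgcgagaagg

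A related word, TGACGCAA, was searched only after frequent words had been counted in the windows of the highest peaks. It begins like the cAMP response element (CRE) and ends like the CARE core. The 8 members with the highest fold enrichment whose site was far enough from the window's edge are printed in the same way, with the variant in capitals.
Klhdc3, chr17:46681048-46681077, minus strand: gtgcccgagacTGACGCAAgcgaggacaag
Plekhh3, chr11:101171423-101171452, minus strand: agaggaggctgTGACGCAAcgtagacccta
Kifc5b, chr17:26916873-26916902, plus strand: acgcgcacttcTGACGCAAccagaggccta
Herpud1, chr8:94386288-94386317, plus strand: gggactcaggaTGACGCAAccacggcgggt
Knl1, chr2:119046872-119046901, plus strand: acagagcgctgTGACGCAAtaccatggaag
Pnpla8, chr12:44269121-44269150, minus strand: cccagcggaagTGACGCAAgctctagggcc
0610009B22Rik, chr11:51688730-51688759, plus strand: ggctgccgaccTGACGCAAgtgacggaaga
Fosb, chr7:19310087-19310116, minus strand: ggagttgcgggTGACGCAAgcgcgggggcg

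Herpud1 and Plekhh3 carried both words. The 200 bases before the listed start of 4 genes, Chac1, Herpud1, Atf3 and the proline enzyme Pycr1, are printed to show where the words lay, read on the strand of the gene and ending at the base before the start. Capitals mark the core and the variant, and a core on the opposite strand reads TTGCATCA.
Chac1, chr2:119351042-119351241, plus strand: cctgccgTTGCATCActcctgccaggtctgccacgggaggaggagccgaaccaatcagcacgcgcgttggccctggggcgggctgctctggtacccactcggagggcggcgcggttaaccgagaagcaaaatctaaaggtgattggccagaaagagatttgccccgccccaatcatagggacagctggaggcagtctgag
Herpud1, chr8:94386229-94386428, plus strand: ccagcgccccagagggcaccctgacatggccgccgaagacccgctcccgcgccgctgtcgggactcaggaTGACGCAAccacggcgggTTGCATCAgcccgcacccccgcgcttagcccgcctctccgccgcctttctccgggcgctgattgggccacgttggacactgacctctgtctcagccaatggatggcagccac
Pycr1, chr11:120643749-120643948, minus strand: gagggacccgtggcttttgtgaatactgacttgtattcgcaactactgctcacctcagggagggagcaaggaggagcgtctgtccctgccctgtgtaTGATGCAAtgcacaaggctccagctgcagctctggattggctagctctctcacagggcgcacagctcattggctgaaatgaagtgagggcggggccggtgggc
Atf3, chr1:191183334-191183533, minus strand: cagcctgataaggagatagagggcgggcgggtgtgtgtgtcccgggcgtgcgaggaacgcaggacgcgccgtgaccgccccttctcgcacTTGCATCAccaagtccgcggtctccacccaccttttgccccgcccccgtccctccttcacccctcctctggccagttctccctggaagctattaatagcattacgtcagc

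In Herpud1 the variant and the core stood next to each other, and in Chac1, Pycr1 and Atf3 a single core lay in the stretch. Chac1 had the variant further upstream, outside the printed bases.

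The height of a peak was read in 2 ways. The fold enrichment is the deposited ratio of pileup over local background at the summit. The number of fragments at the summit was solved from that ratio and the deposited p-value, and it gives the depth behind each ratio. The members had a median fold enrichment of 4.97 (interquartile range 3.971 to 6.442, range 3.29 to 30.96) and a median of 5 fragments. The lowest class, with 3 fragments, held 273 members (22.23%), 694 members had under 6 fragments, and 66 (5.375%, 4.181 to 6.787) had 20 or more. Most members therefore rested on a handful of fragments, and single genes are described mainly for those with many.

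The highest member lay beyond the far end of Wls, which encodes the carrier that takes Wnt proteins to the cell surface. At chr3:159939413-159939624 it had a fold enrichment of 30.96 and 115 fragments (95% Poisson interval 94.94 to 138), and its summit was 813 bp outside the gene. It was only 212 bp wide. The next was at the start of Ppp2r5a, a regulatory subunit of protein phosphatase 2A, with a fold enrichment of 25.44 and 104 fragments (84.98 to 126) in a peak of 698 bp at chr1:191397026-191397723. Ensa, which encodes an inhibitor of protein phosphatase 2A, followed with 20.81 and 50 fragments (37.11 to 65.92). Whether it acts on the form with the Ppp2r5a subunit is not addressed by these data.

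Eif2s2 and 3 tRNA synthetase genes were also among the 15 highest. Eif2s2, the beta subunit of eIF2, had a fold enrichment of 20.78 from 60 fragments (45.79 to 77.23) at chr2:154892337-154892959. Iars, which charges tRNA with isoleucine, had 19.62 from 72 fragments at chr13:49681824-49682693, and its summit was 15 bp before the start. Tars, for threonine, had 18.39 from 69 fragments, and Lars, for leucine, had 17.29 from 39. The fragment intervals of Iars (56.34 to 90.67) and Tars (53.69 to 87.32) overlapped, and that of Lars (27.73 to 53.31) lay below both.

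The other members among the 15 highest had mixed roles. Ran, the GTPase of nuclear transport, had a fold enrichment of 19.83 from 50 fragments. Kifc1, a minus-end-directed kinesin, had 18.99 from 38, and Klhdc3, a kelch-domain substrate receptor of a ubiquitin ligase, had 18.65 from 56. Aldh18a1, which makes the precursor of proline, had 17.97 from 105 fragments, and Got1, the cytosolic aspartate aminotransferase, had 17.45 from 68. Usp2, a deubiquitinase, had 17.36 from 36, and Hspa9, the mitochondrial HSP70, had 17.04 from 39.

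Ppp1r15b held the most fragments of all members. It encodes a subunit that directs protein phosphatase 1 to phosphorylated eIF2. Its 210 fragments (182.6 to 240.4) stood over a solved local background of 11.67 fragments, so that the fold enrichment was 16.65, while the background at Wls was 2.747. Fragments and fold enrichment thus gave different orders.

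**Figure D1:**
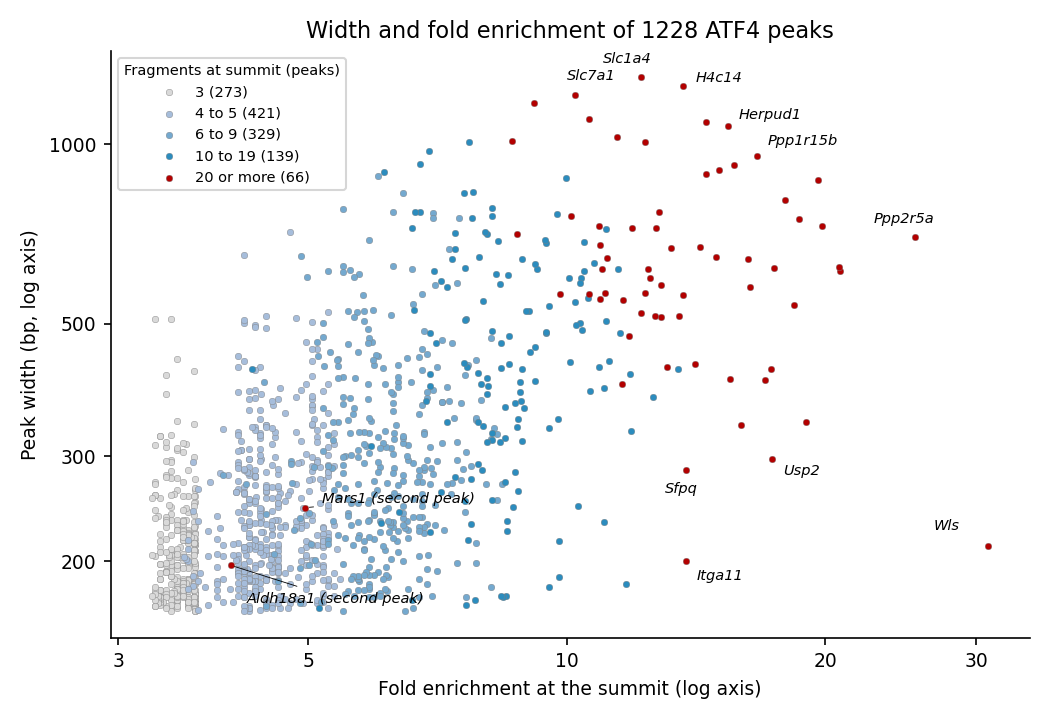
Each point is 1 of the 1228 members, with the fold enrichment at the summit (horizontal, log axis) against the peak width in bp (vertical, log axis), coloured by fragments at the summit. Peaks of 20 or more fragments are mostly wide, with a median of 620 bp, while Wls, Usp2, Itga11 and Sfpq stand out as high and narrow.

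The members were wider than the list as a whole by their medians, 246 bp (interquartile range 197 to 345, range 165 to 1294) against 207 bp over all peaks. Peaks with more fragments were wider. The median width was 198 bp at 3 fragments, 228 bp at 4 to 5, 285 bp at 6 to 9, 424 bp at 10 to 19 and 620 bp at 20 or more. Both quantities come from the same pileup, so this relation is a description of the caller's output.

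The 5 widest members were at genes of different roles. Slc1a4, a neutral amino acid transporter, had a peak of 1294 bp with 82 fragments and a fold enrichment of 12.2. H4c14, a histone H4 gene of 384 bp, had a peak of 1252 bp with 83 fragments and 13.66. Histone H4 genes are a family of similar copies, and how reads shared between copies were placed was not tested. Slc7a1, the cationic amino acid transporter, had 1211 bp with 49 fragments and 10.23. Abhd11 followed with 1173 bp from 20 fragments, and Eif1, which helps the ribosome choose the start codon, with 1104 bp from 69.

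Only 6 of the 66 members with 20 or more fragments were narrower than 300 bp. They were the peaks of Wls at 212 bp, Usp2 at 297 bp, Sfpq at 284 bp and Itga11 at 200 bp, and the lower of 2 peaks at Mars1 (246 bp) and at Aldh18a1 (197 bp). Itga11, an integrin subunit, had 21 fragments and a fold enrichment of 13.78, and its summit lay inside the gene, 419 bp from the far end. Sfpq, a splicing factor, had 37 fragments and 13.76.

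The side of the gene end was close to even. The summit lay inside the gene for 649 of 1228 members (52.85%, 50.01 to 55.67). This small majority was seen in the classes under 6 fragments only. The share inside was 54.21% at 3 fragments and 59.62% (54.76 to 64.34) at 4 to 5, but 48.33% at 6 to 9, 43.17% (34.8 to 51.83) at 10 to 19 and 46.97% at 20 or more. Up to 500 bp from the end the share inside was flat, at 49.82% within 100 bp, 49.76% beyond that up to 250 bp and 50.35% beyond that up to 500 bp. Beyond 500 bp it was 64.14% (57.87 to 70.08), which lay above the intervals of the 3 nearer classes. Gene ends are the outermost coordinates, so summits at starts listed inside the gene count as inside, and these were not separated. The summit was within 100 bp of the end in 277 members (22.56%), between that and 250 bp in 418 (34.04%), between that and 500 bp in 282 (22.96%) and farther in the remaining 20.44%.

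Which end it was could be told for 969 members (78.91%), whose genes have a strand in the promoter table. Of these, 885 (91.33%, 89.38 to 93.03) were at the gene start and 84 at the far end. At the start, 479 summits (54.12%) were downstream of it and 406 upstream. Within 250 bp of the start there were 525 (59.32%), split into 258 upstream and 267 downstream. Further out the downstream side held more, with 104 summits more than 500 bp downstream against 47 at that distance upstream. These distances are from the outermost start, so a summit at a start listed further inside counts as downstream. Jdp2, for example, lay 752 bp downstream of the outermost start but 8 bp from a listed one, and Bbs2 835 bp and 25 bp. How much of the difference such starts make up was not tested. At the far end 26 of 84 summits (30.95%, 21.31 to 41.98) were within 250 bp, and the median distance was 491 bp against 191 bp at the start.

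**Figure D2:**
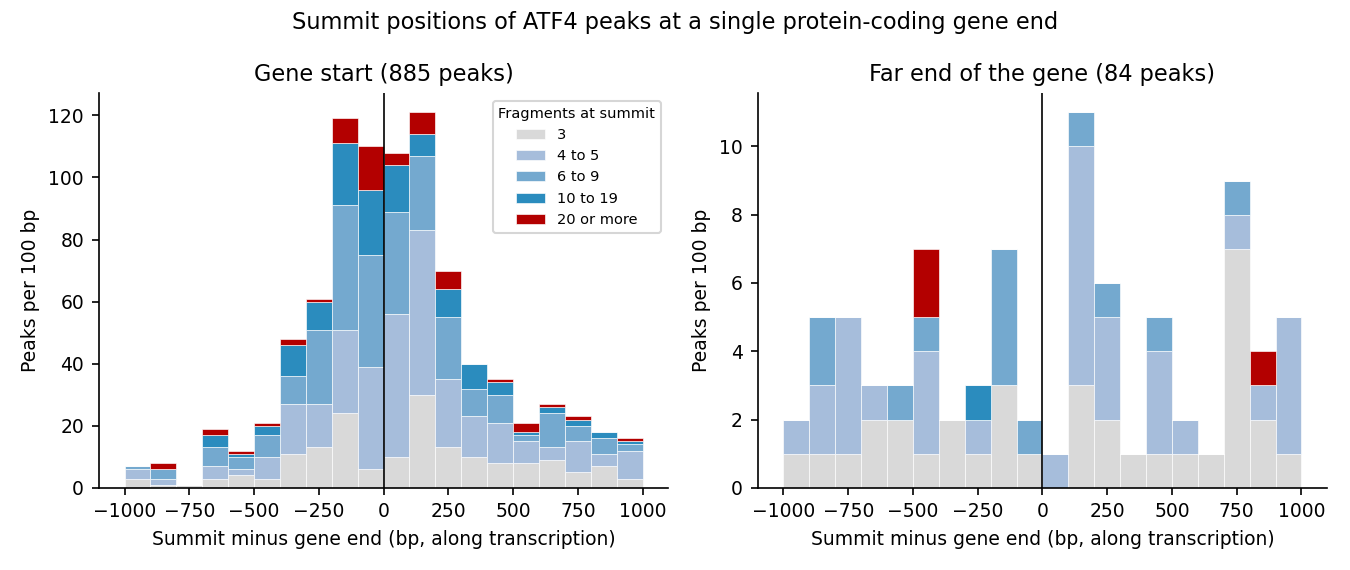
Histograms of the summit position in bp relative to the gene start (left, 885 members) and to the far end (right, 84 members), counted along the direction of transcription in steps of 100 bp and coloured by fragments at the summit. Summits crowd around the start on both sides, and no such crowd is seen at the far end, whose vertical axis covers far fewer peaks.

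The peaks at the start were also higher and wider. Their median fold enrichment was 5.116 and their median width 260 bp, against 4.327 and 206.5 bp at the far end. At the far end 34 of 84 members (40.48%) had 3 fragments, and at the start 172 of 885 (19.44%) did. Only 3 far-end members had 20 or more fragments, at Wls, Itga11 and Mid1ip1. Upstream summits had a median fold enrichment of 5.411 and a median of 6 fragments, and downstream summits had 4.831 and 5.

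Peaks with more fragments were more often at a start. The share of starts among members with a known strand was 83.5% (77.71 to 88.29) at 3 fragments, 89.75% at 4 to 5, 95.06% at 6 to 9 and 99.17% (119 of 120) at 10 to 19. At 20 or more fragments it was 94.83% (85.62 to 98.92). The share of summits within 250 bp of the gene end was 46.89% (40.85 to 53) at 3 fragments and 68.18% (55.56 to 79.11) at 20 or more.

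Compared with the other peaks of the library, the members stood near those at ends of neighbouring gene pairs. The 299 peaks close to ends of 2 or more protein-coding genes had a median fold enrichment of 5.271 and a median width of 274 bp, and 4.682% (2.583 to 7.731) had 20 or more fragments. The 2840 peaks deeper inside protein-coding genes had 4.141, 203 bp and 1.408% (1.008 to 1.913), and the 3166 peaks outside had 4.202, 200 bp and 1.769% (1.339 to 2.291). The members' share of 5.375% lay above the intervals of those 2 groups and within the interval of the shared ends. Of the members, 210 (17.1%) also had an end of another kind of gene, such as a non-coding RNA, within 1000 bp.

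To describe functions, 866 genes were placed in 22 lists, chosen with earlier results of these data known. A member peak was found at 5.48% of all protein-coding genes, one of 6 or more fragments at 2.4%, and one of 20 or more at 0.292%. Of the 66 members with 20 or more fragments, 29 (43.94%, 31.74 to 56.7) were at a listed gene, against 6.34% of members under 6 fragments and 116 of all 1199 member genes (9.675%). The lists hold 3.957% of protein-coding genes.

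Cytosolic aminoacyl-tRNA synthetases, which load amino acids onto their tRNAs, had the fullest list. A member lay at 10 of 20 genes (50%, 27.2 to 72.8), all 10 had 6 or more fragments, and 7 had 20 or more. Their median fold enrichment was 14.41. Besides Iars, Tars and Lars, they were Mars1 (15.65), Cars (14.53), Nars (14.29), Gars (11.92), Farsb (9.449), Sars (4.807) and Aars (4.233). Qars, Vars and Yars had a peak only at an end shared with another gene. The mitochondrial synthetases had 1 of 17 (5.882%, 0.1488 to 28.69), Nars2, with a fold enrichment of 4.141 from 4 fragments. The transporter of mature tRNA out of the nucleus, Xpot, was in no list and had 15.05 from 32 fragments.

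Enzymes that make or convert other amino acids had a member at 8 of 25 genes (32%, 14.95 to 53.5), 4 of them with 20 or more fragments. After Aldh18a1 and Got1 came Pycr1, the last step of proline synthesis, with a fold enrichment of 16.25 from 61 fragments, and Gpt2, an alanine aminotransferase, with 12.88 from 22. Bcat1, a branched-chain aminotransferase, had 10.75 from 17, and Asns, asparagine synthetase, had 7.48 from 9. Amino acid transporters had a member at 5 of 34 genes (14.71%, 4.953 to 31.06), an interval that holds the 5.48% of all genes. Slc38a2 had 12.8, Slc1a4 12.2, Slc7a1 10.23 and Slc7a5 6.662.

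The serine and one-carbon enzymes had a member at 6 of 30 genes (20%, 7.714 to 38.57), 3 of them with 20 or more fragments. Mthfd1l, the mitochondrial formate-tetrahydrofolate ligase, had a fold enrichment of 12.19 from 33 fragments, with the summit 947 bp inside the gene. Shmt2, which splits serine in mitochondria, had 8.752 from 20, and Aldh1l2, which oxidises formyl-tetrahydrofolate there, had 8.628 from 20. Phgdh, the first step of serine synthesis, had 6.746 from 10 fragments with the summit 601 bp inside the gene. Psat1, the next step, had 6.129 from 10 with the summit 12 bp inside, and Ggh had 5.193 from 5. Mthfd2 had a peak only at a shared end, and Psph, the last step of serine synthesis, had no summit within 1000 bp of an end.

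Of 30 genes listed for the ATF4 response, 13 had a member (43.33%, 25.46 to 62.57), all with 6 or more fragments and 5 with 20 or more. Herpud1, a protein of endoplasmic reticulum (ER) degradation, had a fold enrichment of 15.43 from 106 fragments. Chac1, which breaks down glutathione, had 10.93 from 29, Atf3 had 10.62 from 21 and Stc2, a secreted glycoprotein, had 10.12 from 21. Trib3, a pseudokinase that binds ATF4, had 6.232 from 9, Sesn2, which holds back mTORC1, had 5.04 from 7, and Ddit4, which does too, had 4.458 from 6. Atf5, Ddit3, Cebpg and Map1lc3b had a peak only at a shared end.

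Leucine zipper factors as a family had a member at 10 of 52 genes (19.23%, 9.627 to 32.53), all with 6 or more fragments. Fosb had the highest, with a fold enrichment of 11.59 from 23 fragments and its summit 6 bp before the outermost start. Atf3 and Jdp2 (7.693) followed, and then Jund (6.441), Nfe2l1 (6.354), Atf7 (6.245), Fosl2 (5.962), Jun (5.913), Tef (5.716) and Fos (4.78).

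Other parts of the translation machinery had shares whose intervals overlapped, and no difference between them was tested. Of 12 genes for eIF2, its kinases and eIF2B only Eif2s2 had a member (8.333%, 0.2108 to 38.48). Other translation factors had 8 of 44 (18.18%, 8.192 to 32.71), 7 of them (15.91%) with 6 or more fragments. The highest were Eif3c (13.52 from 20 fragments), Eif1 (10.62 from 69), the release factor Etf1 (8.562 from 12) and Eif5a (6.93 from 10). Cytosolic ribosomal proteins had 13 of 82 (15.85%, 8.72 to 25.58), 6 of them (7.317%) with 6 or more fragments and none with 20, and the highest was Rps19 with 7.872 from 10. Their median was 4.61, below the 4.97 of all members.

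Protein quality control lists held a few members each. The ER list had 5 of 39 (12.82%, 4.297 to 27.43), with Dnajb9, an ER co-chaperone, at 10.37 from 16 fragments, P4hb at 7.006, Edem3 at 6.722 and Vcp at 6.487. The autophagy list had 3 of 42 (7.143%, 1.498 to 19.48), with Uvrag at 11.84 from 18, Becn1 at 8.541 from 13 and Ulk2 at 4.461. Among mitochondrial chaperones, proteases and import genes 6 of 38 had a member (15.79%, 6.023 to 31.25), and apart from Hspa9 none was above 5.925, the value of Afg3l2. The 4 members of 33 proteasome genes (12.12%, 3.403 to 28.2) had a median of 3.8. With 6 or more fragments the counts were 4 for the ER list (10.26%), 2 for autophagy (4.762%), 2 for the mitochondrial list (5.263%) and 0 for the proteasome.

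The lists for central carbon metabolism, redox and respiration had no member of 20 or more fragments. Only 0.292% of all protein-coding genes had one, so a count of 0 in lists of this size is near that share. Glycolysis, pentose phosphate and TCA genes had 7 of 49 (14.29%, 5.942 to 27.24), from Me2 at 5.193 to Taldo1 at 3.624, but only 1 (2.041%) with 6 or more fragments, near the 2.4% of all genes. The redox, glutathione, heme and iron list had 4 of 46 (8.696%, 2.42 to 20.79), none of them with 6 fragments. Among them was Hmox1, which breaks down heme, at 4.607 from 5 fragments. This list does not hold every gene of these functions. Chac1, which breaks down glutathione, was listed with the ATF4 response and had 29 fragments. The respiratory chain and ATP synthase had 3 of 76 (3.947%, 0.8216 to 11.11), Cycs at 6.442, Atp5g1 at 5.587 and Atp5o at 5.193, and 2 of the 3 had 6 or more fragments (2.632%).

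Genes that mark cell types had shares whose intervals held the background of 5.48%. Neuronal marker and synaptic genes had a member at 3 of 44 (6.818%, 1.429 to 18.66), Nrxn2 with 6.819 from 9 fragments, the only 1 of the 3 with 6 or more (2.273%), Homer1 with 4.602 from 4 and Tubb3 with 4.461 from 4. Glutamate and GABA receptors had 1 of 36 (2.778%, 0.0703 to 14.53), Gria4, with 3.462 from 3 fragments. Glial, endothelial and microglial marker genes had 3 of 35 (8.571%, 1.804 to 23.06), Sox9 (4.577), Cnp (4.295) and Pdgfra (3.514), each from 3 to 5 fragments. The cell cycle and replication list had 2 of 48 (4.167%, 0.5086 to 14.25), both with 3 fragments. The splicing list had 4 of 54 (7.407%, 2.055 to 17.89), led by Srsf2 at 5.637, and 9 more with a peak only at a shared end. Neither list holds every gene of its function. Outside them, the splicing factor Sfpq had 13.76 from 37 fragments, and the kinetochore gene Knl1 had 14.91 from 34.

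**Figure D3:**
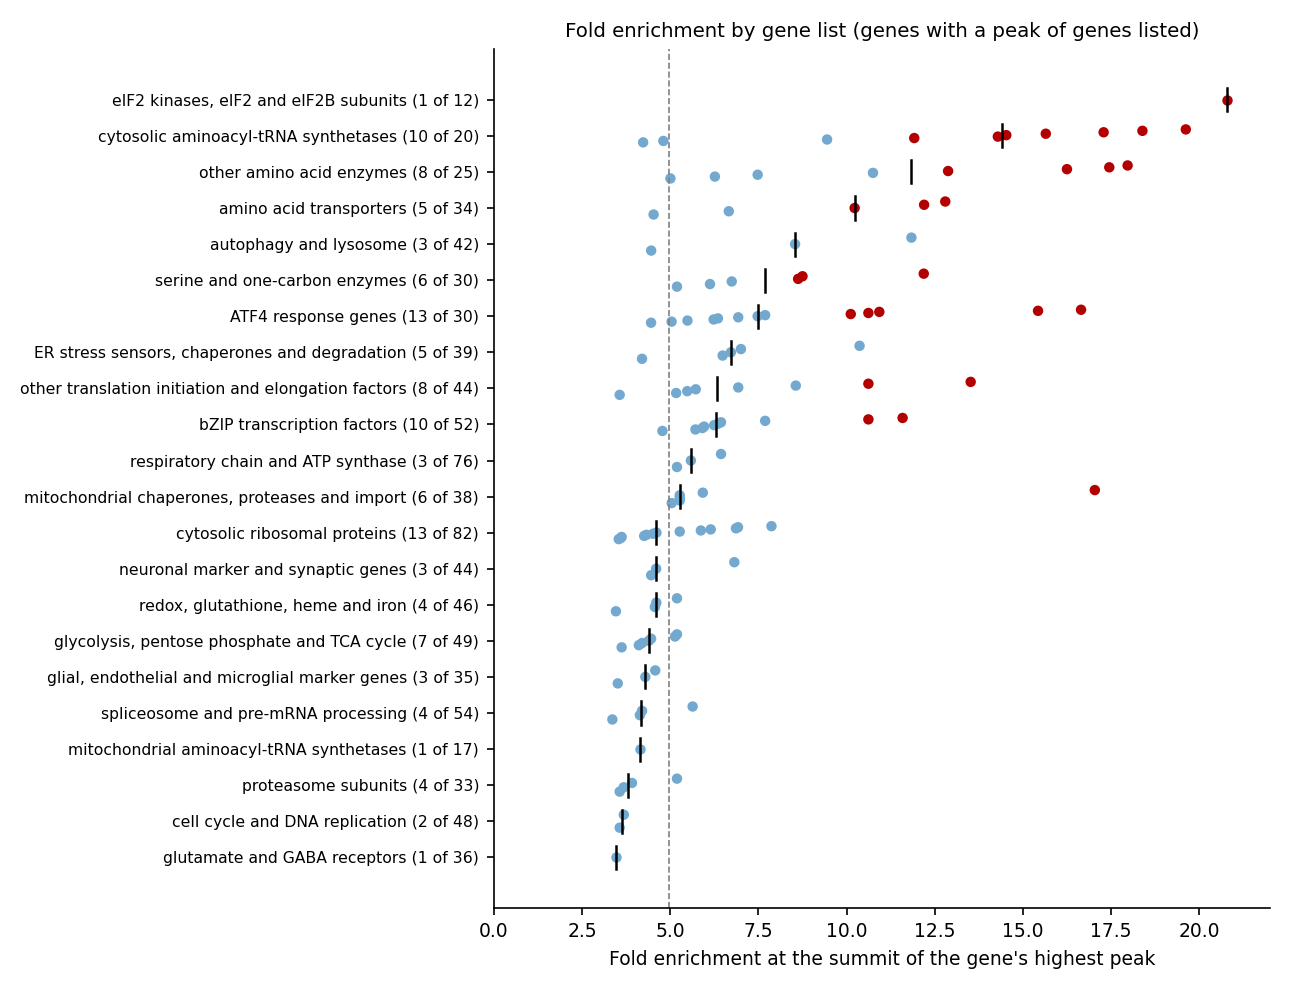
Each point is a listed gene with a member peak, placed by the fold enrichment of its highest peak, with red for 20 or more fragments. Black bars are list medians, the dashed line is the median of all members (4.97), and the counts beside each name are genes with a member of genes in the list. Synthetases, amino acid enzymes and ATF4 response genes each have 2 or more points above 15, while the eIF2 list, which has the highest median, rests on Eif2s2 alone.

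Outside the lists, the high members were at genes of varied roles. Besides those named above, 20 or more fragments were found at Plekhh3 (16.37), at the circadian repressor Ciart (15.49), at Sec16a of the ER exit sites (14.53), at the kinetochore scaffold Knl1 (14.91), at Spred1, an inhibitor of MAP kinase signalling (14.09), at the histone deacetylase Hdac5 (12.88) and at the ubiquitin ligase Siah2 (12.72). By name prefix, olfactory receptors (Olfr) had a member at 4 of 1110 genes (0.3604%, 0.09827 to 0.9201), vomeronasal receptors (Vmn) at 3 of 355, and keratins (Krt) at 0 of 112, which allows a share of up to 2.679%. Zinc finger genes named Zfp had 27 of 400 (6.75%, 4.495 to 9.669) and Slc transporters 25 of 389 (6.427%, 4.202 to 9.341), both close to the background. F-box genes named Fbxo had 6 of 36 (16.67%, 6.372 to 32.81) and phosphatase genes named Ppp 9 of 77 (11.69%, 5.486 to 21.03). Their intervals lay above 5.48%, for Ppp only just. Genes named Usp had 7 of 57 (12.28%, 5.083 to 23.68), with an interval that held the background. Several more prefixes were counted, so single intervals above the background are descriptions, and no prefix was tested. Member genes were longer than protein-coding genes in general, with a median of 24.82 kb against 17.17 kb.

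A total of 29 genes had 2 members, and none had more. In 26 both peaks were at the same end, with a median of 674 bp between summits, and at Hap1, Sik1 and Necap2 they were at opposite ends. Of the 5 pairs with the highest fold enrichment, Aldh18a1 had 17.97 inside the gene and 4.057 outside, Mars1 had 15.65 and 4.957, Slc38a2 had 12.8 and 5.916, and Mthfd1l had 12.19 and 6.078, the last with both summits inside. Gtpbp4, a nucleolar GTPase, had 10.64 and 5.913. The lower peaks of Aldh18a1 and Mars1 still held 23 and 21 fragments, over solved backgrounds of 4.915 and 3.438 fragments.

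The CARE core was found mainly in promoter windows of the highest peaks. The core was in 14 of 362 windows (3.867%, 2.13 to 6.404), against 0.865% of all 21263 protein-coding windows. By fragments it was in 0 of 43 windows at 3, which allows a share of up to 6.977%, in 1 of 111 at 4 to 5, in 0 of 120 at 6 to 9, which allows up to 2.5%, in 3 of 60 at 10 to 19 and in 10 of 28 (35.71%, 18.64 to 55.93) at 20 or more. Counted over all windows that the peak overlaps, whether or not they hold the summit, it was in 10 of 47 (21.28%, 10.7 to 35.66) at 20 or more. The core followed by T was in 4 windows, those of Iars, Pycr1, Cnpy2 and Nupr1, against 0.179% of all windows. With any letter at 1 place, TGATGNAA, it was in 27 windows (7.459%) against 3.6%.

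The variant was more frequent than the core. It was in 30 of 362 windows (8.287%, 5.661 to 11.62), against 0.644% of all windows. The word had been picked in the 47 windows overlapped by peaks of 20 or more fragments, so its share there, 11 of 47 (23.4%), is a description of that choice. So is its share in the windows that hold the summit of such a peak, 11 of 28 (39.29%, 21.5 to 59.42). In windows that played no part in the choice it was in 10 of 60 (16.67%, 8.293 to 28.52) at 10 to 19 fragments, in 7 of 120 (5.833%, 2.377 to 11.65) at 6 to 9, in 2 of 111 at 4 to 5 and in 0 of 43 at 3, which allows up to 6.977%. Core or variant stood in 41 of 362 windows (11.33%) against 1.49%, and in 18 of the 28 highest (64.29%), or 18 of the 47 (38.3%) that a peak of 20 or more fragments overlaps, the windows of the choice included in both. Among windows under 20 fragments, the 23 with either word had a median fold enrichment of 7.618, and the 311 with neither had 5.271.

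After the core the next letter was C at 7 of 14 sites, T at 4 and G at 3. After the variant it was G at 15 of 28 sites with that letter in the printed span, C at 9, T at 3 and A at 1. The core was read on the strand of the gene at 4 of 14 sites and the variant at 19 of 30.

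**Figure D4:**
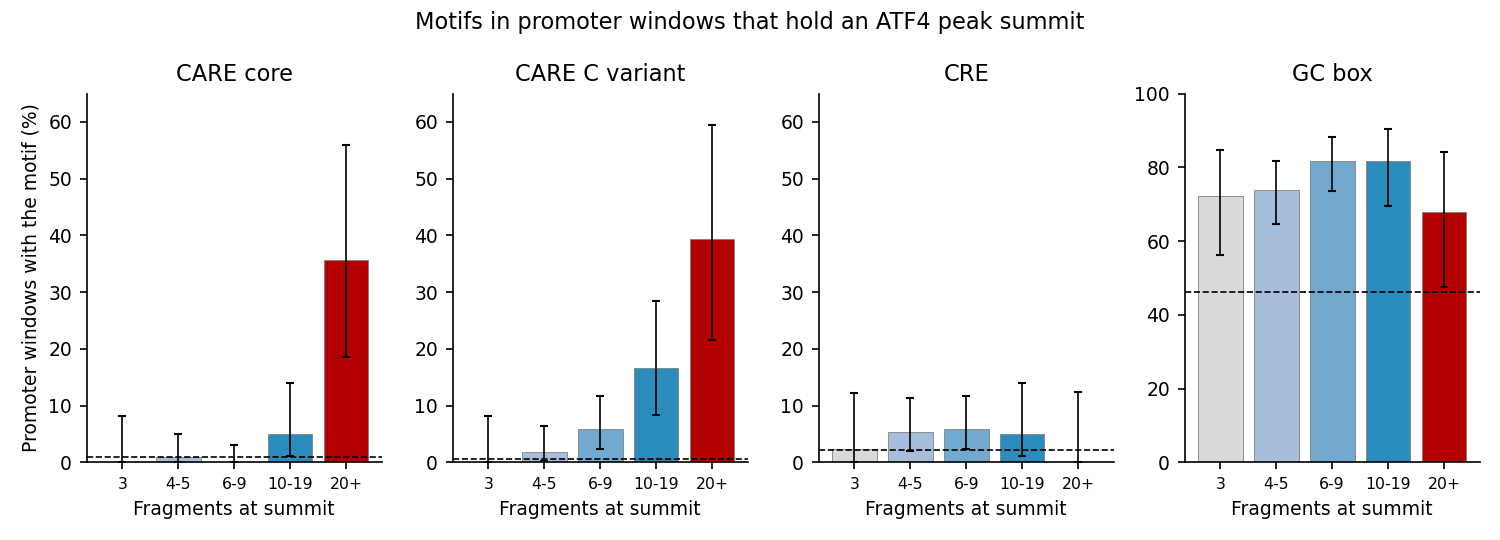
Bars are the percent of promoter windows with each motif among members whose summit lies in the window, by fragments at the summit, with 95% Clopper-Pearson intervals, and dashed lines are the percent over all protein-coding windows. The CARE core reaches 35.71% and the variant 39.29% at 20 or more fragments (21.28% and 23.4% over all windows the peaks overlap, not drawn), while the GC box, on an axis of its own up to 100%, is common in every class and the CRE stays low.

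Other promoter words are described below, and no difference between classes of fragments was tested. The GC box, GGGCGG, was in 279 of 362 windows (77.07%, 72.39 to 81.3) against 46.2% of all, and between 67.86% and 81.67% in each class of fragments. The CCAAT box was in 173 (47.79%) against 38.2%, with 39.64% (30.48 to 49.37) at 4 to 5 fragments and 64.29% (44.07 to 81.36) at 20 or more. The full CRE, TGACGTCA, was in 17 (4.696%, 2.759 to 7.413) against 2.23%, and in 0 of the 28 highest, which allows up to 10.71%. Its first letters alone, TGACG, which the variant also holds, were in 174 (48.07%) against 23.6%, with 32.56% (19.08 to 48.54) at 3 fragments and 67.86% (47.65 to 84.12) at 20 or more. The share at 20 or more includes windows in which the variant was picked. The E-box, CACGTG, was in 50 (13.81%) against 7.84%, between 8.108% and 18.6% in the lower classes and in 7 of 28 (25%, 10.69 to 44.87) at 20 or more. The TATA box, TATAAA, was in 26 (7.182%) against 12.6%. The windows were rich in G and C, with a median of 62.67% against 56.33% for all windows and of 23 CpG against 13. The CRE, TGACG, the E-box and the variant hold CG as well. Whether the members' excess of these words or of GC boxes goes beyond this base composition was not tested.

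The words lay close to the summit, but only windows that hold the summit were searched, which bounds the distance. The distance of a word placed anywhere in such a window was not worked out. Within the 300-base windows the core was a median of 34.5 bp from the summit (range 2 to 91), and 14 of 14 sites were within 100 bp. The variant was at a median of 45 bp (10 to 242), with 25 of 30 sites within 100 bp. Pycr1 had its core 2 bp from the summit and Chac1 8 bp. Relative to the gene start, motif centres lay from -199 to 11 bp for the core and from -246 to -2 bp for the variant, with negative positions upstream.

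**Figure D5:**
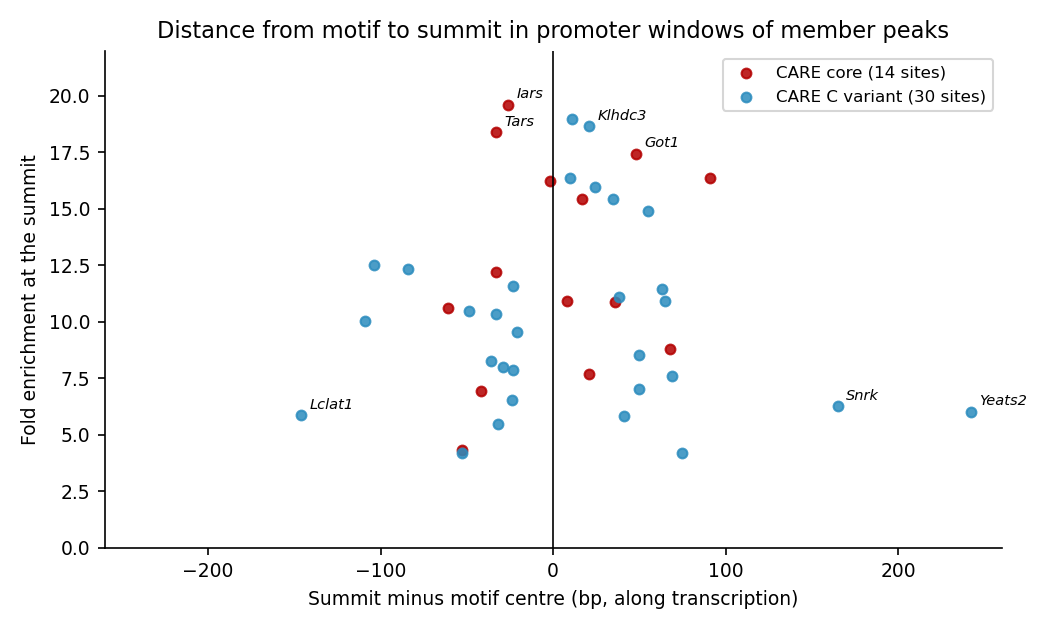
Each point is a CARE core (red, 14 sites) or its C variant (blue, 30 sites) in a window, with the summit position minus the motif centre in bp along transcription (horizontal) against the fold enrichment (vertical). The cores lie within 91 bp of the summit, and the variants of Snrk, Yeats2 and Lclat1 lie farthest from it, all at fold enrichments under 7.

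Both words were found in 3 of the 28 highest windows, those of Plekhh3, Herpud1 and Chac1. Neither was found in 10, those of Aldh18a1, Sfpq, Gpt2, Hdac5, Stk40, Gars, AW549877, Zfp869, Cic and Abhd11, and this says only that these letters were not in the window. Of those 10, Sfpq, Gars and AW549877 had TGATGNAA. Kifc1 and Kifc5b, related kinesin genes, both had the variant, and their windows shared a run of 68 identical letters. How reads from this run were placed between the genes was not tested.

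The limit of 1000 bp fell among ordinary peaks. The last members inside it were Hcrtr1 at 993 bp (fold enrichment 4.327), Jund at 993 bp (6.441) and Zfp57 at 996 bp (4.733). The first peaks outside were those near Lpxn at 1002 bp (5.433), Camk1g at 1007 bp (3.596) and Rax at 1007 bp (3.361).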

How the data were processed

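CUT&Tag peaks of 1 ATF4 library were analysed. Per the labels, the submitters' processing notes name FastQC, BWA, MACS2 2.1.2 and deepTools with build mm10, and whether the IgG library served as control in peak calling is not given in the sources used here. The deposited values are, for each peak, its fold enrichment at the summit (a ratio), the p-value and q-value as −log10, the summit offset and an integer score, which was not used. The smallest deposited −log10 q-value was 1.318.

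Fragments at the summit were solved from the fold enrichment and the p-value, taking fold as pileup plus 1 over background plus 1 and p as a Poisson tail, and all 7873 peaks fitted within 0.001 in −log10 p. The solver was tested on simulated data. Genes, strands and promoter windows were those of the RefSeq tables of GRCm38.p6, and 17492 protein-coding genes had a window. Shares carry Clopper-Pearson intervals at 95% and fragments exact Poisson intervals. A share of 0 is given with the limit that 3 counts allow. With 1 library there was no test and no replicate error. Total depth is unknown. The members and the 22 lists, of which all 866 genes were found, were chosen with earlier results of these data known, and the variant word after frequent words had been seen. Genes were named by rank: the 15 highest, the 5 widest, the highest 5 on each side, up to 4 per list, 5 genes with 2 peaks, 3 peaks on each side of the limit, the 6 one-carbon genes of the study and 10 core sites. Others were chosen after their values were seen. Alternatives were the q-value limit, the window, overlap in place of the summit, a fragment minimum and leaving out ends of other kinds of gene. Calculations ran in scipy 1.17.1 and pandas 2.3.3 under Python 3.11.15 with numpy 2.4.6, and plots in matplotlib 3.10.9.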

Additional observations from a re-analysis of the deposited data

How the results depend on the processing

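For 9 results, 6 alternatives gave 54 values, of which 36 stayed within the interval of the reported value (or, for the number of members, within 1.5 times it) and 18 moved out of it. None moved when any overlap of the peak with the 1000 bp window replaced the summit, or when members with an end of another kind of gene nearby were left out. The shares of the 3 gene lists recomputed (ATF4 response genes, cytosolic synthetases and neuronal markers) stayed within their intervals under all 6, but these intervals are wide. The neuronal share went from 6.818% to 2.273% both with −log10 q of at least 5 and with at least 6 fragments. The share over all protein-coding genes fell too, from 5.48% to 2.4% with at least 6 fragments. The synthetase share lay between 40% and 65%, and the ATF4 response share between 33.33% and 53.33%. With peaks of −log10 q of at least 5, members fell to 373, starts were 97.1% of known ends, the summit was inside the gene for 46.92%, the median width was 371 bp, the median fold enrichment 7.628 and the share of windows with the CARE core 8.442%. With at least 6 fragments these were 534 members, 96.15%, 46.82%, 332.5 bp, 6.776 and 6.25%, the last within the interval of the reported share. With a window of 500 bp the starts were 94.02%, the summit was inside for 49.71%, the width was 258 bp and the fold enrichment 5.079, and with a window of 3000 bp the starts were 83.83%, the width 233 bp and the fold enrichment 4.602. The small majority of summits inside the gene therefore turned into a minority under 3 of these settings. By construction the limits on q and fragments left fewer and higher peaks, and the wider window added more distant ones. Depth limits what can be said of single genes, since 694 of the members rested on under 6 fragments.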
